A study of Mus musculus with 9 samples.

Results

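Partly methylated CpG islands of splenic B cells were the 621 autosomal islands whose methylation, averaged over the HOM, HET and WT libraries, lay from 20% to under 80%. An island is a stretch above 200 bp holding 6 or more CpGs in every 100 bp on average, taken as a maximal segment in which a CpG scores 17 and any other base -1. Of 22530 autosomal islands, 16376 had at least 30 CpG reads in every library, where a CpG read is one read covering one CpG. Of those, 13723 were below 20% and are called unmethylated, and 2032 were at 80% or over and are called fully methylated. The islands were chosen by the mean of their 3 measured levels, which is described without a test.

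The data are whole-genome bisulfite sequencing counts from mice with a point mutation of Kmt2d, a histone methyltransferase that places H3K4 monomethylation (Ile5482Asn, position 98835228 of chromosome 15). HOM mice carried the mutation on both copies, HET mice on one, and WT mice on none. The cells were bulk splenic B cells, untreated, purified by magnetic removal of other cells. HOM and HET columns, but not WT, are further labelled ENU, the name of a chemical mutagen, so genotype and that label cannot be told apart. Each genotype has 1 set of counts, called a library here, so no difference has a replicate check and every test compares libraries, not genotypes.

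The libraries held 215454437 CpG reads in HOM, 282430649 in HET and 200824258 in WT. CpGs more than 4000 bp from islands, the open sea, stood at 78.1% in HOM, 80.9% in HET and 81.6% in WT. A partly methylated island held a median of 242 CpG reads in HOM, 273 in HET and 199 in WT. As a check of the labelled cell type, the CpG-richer gene end was at 4.77% in HOM, 4.52% in HET and 9.42% in WT for Pax5, the regulator of B cell identity. The 7 B cell markers, 2 of them below 20%, had a median of 39.6% over the mean of the libraries, against 59.7% for 6 T cell, 77.6% for 6 myeloid and 74.2% for 4 erythroid markers. Cd4, a T cell marker, was low as well at 7.84%, and a methylation level does not measure expression.

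CpG islands are stretches rich in CpGs that often hold promoters, and most stay free of methylation whether or not the gene is active. Intermediate levels arise in known ways: one parental copy is methylated at imprinted control regions, and single genes of the clustered protocadherins are chosen stochastically. Separately, the promoters of many germline genes are silenced by methylation in body cells. A pooled level does not tell a mixture of methylated and unmethylated copies from partly methylated copies.

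Promoter sequences show what was measured. Each of the 8 below is the RefSeq window of GRCm38.p6 from 250 bases before to 50 after a start site, printed 5′ to 3′ on the strand of the gene, with every CpG in capitals. Plagl1 and Mest stand for imprinted genes, Dazl and Tdrd1 for germline genes, and Tex14 with Rad51c for one island shared by a methylated and an unmethylated start. Rbmxl2 has the most CpGs among coding promoter islands that are evenly methylated, and Krtcap3 the greatest difference between HOM and WT at a coding promoter with 60 or more CpG reads in both.
Plagl1 (chr10:13090582-13090881, plus strand): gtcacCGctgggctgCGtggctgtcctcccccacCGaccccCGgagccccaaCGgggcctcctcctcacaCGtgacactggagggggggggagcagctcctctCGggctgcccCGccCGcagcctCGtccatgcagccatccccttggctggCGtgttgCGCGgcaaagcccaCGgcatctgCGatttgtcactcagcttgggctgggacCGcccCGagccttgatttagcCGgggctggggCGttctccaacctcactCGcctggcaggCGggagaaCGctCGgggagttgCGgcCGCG
Mest (chr6:30737803-30738102, plus strand): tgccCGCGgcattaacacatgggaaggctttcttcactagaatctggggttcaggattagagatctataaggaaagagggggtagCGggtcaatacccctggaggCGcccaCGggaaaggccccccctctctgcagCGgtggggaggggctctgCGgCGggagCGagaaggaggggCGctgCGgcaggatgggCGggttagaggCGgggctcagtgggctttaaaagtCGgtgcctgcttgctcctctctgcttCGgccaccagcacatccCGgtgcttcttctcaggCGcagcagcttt
Dazl (chr17:50293571-50293870, minus strand): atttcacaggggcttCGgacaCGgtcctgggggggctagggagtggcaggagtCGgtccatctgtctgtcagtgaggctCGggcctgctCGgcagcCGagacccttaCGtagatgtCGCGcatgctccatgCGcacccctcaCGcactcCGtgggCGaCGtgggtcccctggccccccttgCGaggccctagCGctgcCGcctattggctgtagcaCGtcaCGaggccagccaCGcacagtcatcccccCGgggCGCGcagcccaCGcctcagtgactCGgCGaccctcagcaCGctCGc
Tdrd1 (chr19:56826025-56826324, plus strand): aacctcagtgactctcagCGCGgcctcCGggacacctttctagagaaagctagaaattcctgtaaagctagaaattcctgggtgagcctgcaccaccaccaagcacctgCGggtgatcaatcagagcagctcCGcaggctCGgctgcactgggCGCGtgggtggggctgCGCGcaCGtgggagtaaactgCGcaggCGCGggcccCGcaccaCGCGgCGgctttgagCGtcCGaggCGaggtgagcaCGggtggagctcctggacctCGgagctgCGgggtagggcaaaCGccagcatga
Tex14 (chr11:87404815-87405114, plus strand): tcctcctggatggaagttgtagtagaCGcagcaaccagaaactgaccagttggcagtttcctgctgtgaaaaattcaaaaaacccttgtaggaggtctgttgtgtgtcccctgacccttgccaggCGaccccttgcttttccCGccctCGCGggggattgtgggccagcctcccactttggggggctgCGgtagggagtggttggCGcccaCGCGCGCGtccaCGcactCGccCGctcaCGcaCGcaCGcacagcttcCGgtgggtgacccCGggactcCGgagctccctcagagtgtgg
Rad51c (chr11:87404457-87404756, minus strand): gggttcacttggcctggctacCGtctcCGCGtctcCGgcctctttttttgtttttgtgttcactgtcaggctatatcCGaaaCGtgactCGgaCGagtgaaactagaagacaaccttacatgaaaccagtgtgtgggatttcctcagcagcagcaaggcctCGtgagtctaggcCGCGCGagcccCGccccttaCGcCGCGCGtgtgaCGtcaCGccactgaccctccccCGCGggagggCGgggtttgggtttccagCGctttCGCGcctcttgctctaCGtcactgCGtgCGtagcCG
Rbmxl2 (chr7:107209195-107209494, plus strand): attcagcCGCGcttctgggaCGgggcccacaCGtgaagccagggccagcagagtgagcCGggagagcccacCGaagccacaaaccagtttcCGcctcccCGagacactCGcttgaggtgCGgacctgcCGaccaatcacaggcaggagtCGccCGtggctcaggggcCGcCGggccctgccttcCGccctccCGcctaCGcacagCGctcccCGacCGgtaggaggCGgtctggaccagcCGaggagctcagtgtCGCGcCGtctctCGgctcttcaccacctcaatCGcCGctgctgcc
Krtcap3 (chr5:31251456-31251755, plus strand): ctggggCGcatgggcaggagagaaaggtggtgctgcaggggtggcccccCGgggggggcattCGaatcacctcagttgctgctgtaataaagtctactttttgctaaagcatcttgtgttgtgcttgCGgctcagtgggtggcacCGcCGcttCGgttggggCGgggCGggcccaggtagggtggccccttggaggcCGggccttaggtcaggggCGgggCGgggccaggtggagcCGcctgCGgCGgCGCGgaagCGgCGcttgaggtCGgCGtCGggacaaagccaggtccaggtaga

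The Plagl1 window holds 26 CpGs, which stood at 21.0% in HOM, 33.9% in HET and 26.5% in WT over 157, 233 and 102 CpG reads. The Mest window holds 17 CpGs and was lower, at 11.5% in HOM, 26.4% in HET and 19.8% in WT. Windows of the germline genes were higher, and the 28 CpGs of Dazl stood at 89.1% in HOM, 94.8% in HET and 96.2% in WT. Tdrd1 lay between, with 44.6% in HOM, 83.9% in HET and 65.3% in WT over 25 CpGs. All 395568 CpGs of the autosomal promoter windows used lay at CpG positions of the deposited table, so sequence and counts share one coordinate system. The 6-letter motif TGCCGC, searched on both strands because ZFP57, a protein that protects imprinted methylation, binds it, is in windows of 4 of 6 genes of the maternally methylated imprinted list whose window touches a partly methylated island (Nnat, Mest, Nap1l5 and Plagl1, but not Ndn or Igf2r). It is in 22.8% of the 79 genes with such a window. Of the 31396 autosomal windows available, none on chromosome 18, 11.6% hold it, and 24.9% of those with 15 or more CpGs. A match is a description and does not show binding.

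Partly methylated islands were smaller and poorer in CpGs than unmethylated ones and lay mostly away from promoters. Their median length was 352 bp with 32 CpGs, against 603 bp with 62 CpGs for unmethylated and 294 bp with 24 CpGs for fully methylated islands. Inside a gene and over 1000 bp from its ends lay 46.9% of them (291), against 9.90% of unmethylated and 49.9% of fully methylated islands. Coding promoters held 12.1% (75), against 59.7% of unmethylated and 2.46% of fully methylated islands. A further 17 were at noncoding promoters, 107 within 1000 bp of another gene end and 131 between genes. Chromosome 18 had no promoter windows, so none of its 488 tested islands, 50 of them partly methylated, could count as at a promoter. Levels in the middle were sparse: 170 stood at 20 to 30% and 116 at 70 to 80%, while 73 lay at 50 to 60%. Chromosome 18 had the greatest share, 50 of 488 islands tested (10.2%), and chromosome 16 the smallest, 6 of 493 (1.22%).

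**Figure D1:**
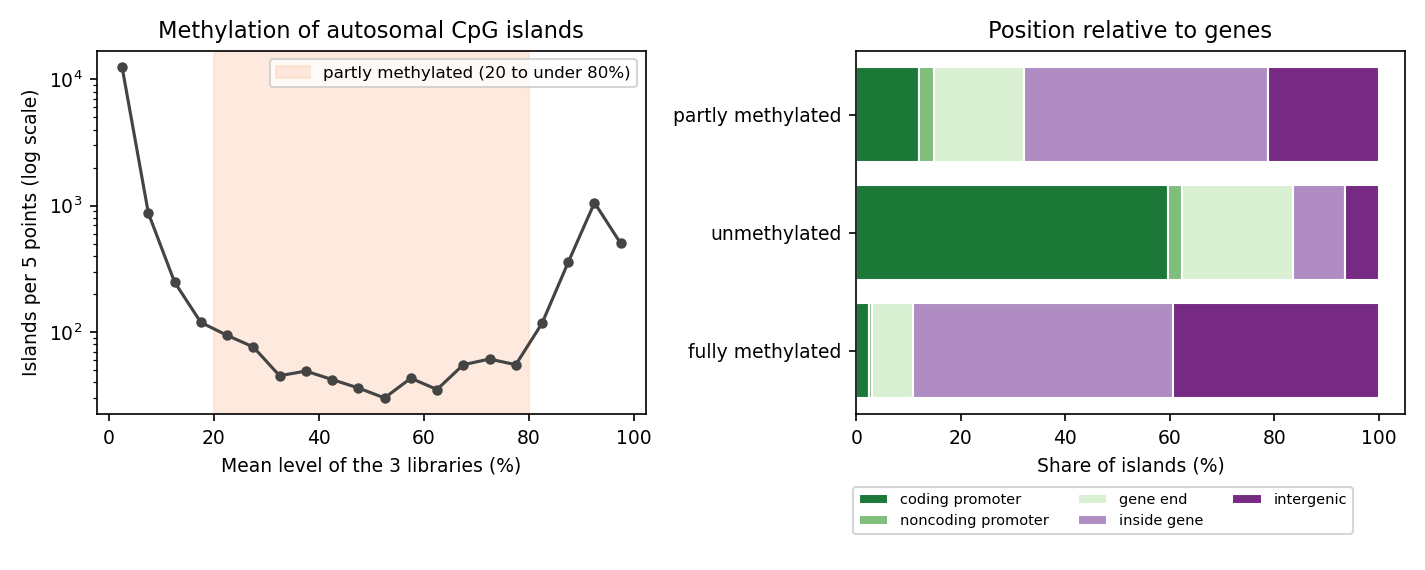
Left, number of autosomal islands (log scale) in steps of 5 points of the mean level (%) of the 3 libraries, with the range of partly methylated islands shaded. Right, share (%) of islands of each class at coding and noncoding promoters, within 1000 bp of a gene end, inside genes and between genes. The shaded range holds 621 islands, of which 46.9% lie inside genes. Chromosome 18 had no promoter windows, so its islands are counted in the other positions.

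Values close to the limits show how the rule falls. Just inside the lower limit lay islands near Khdc3, a gene of the early embryo, and 2 farther from genes, with means of 20.1% to 20.3%. Just outside lay islands near Gpr158, Chst5 and Peg12, an imprinted gene, with means of 19.93% to 19.95%. At the upper limit the means were 79.7% to 79.96% inside and 80.03% to 80.2% outside.

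Most partly methylated islands had similar levels along their length. Each island was cut into 2 sides with equal numbers of CpGs. Of 609 islands with 5 or more covered CpGs on each side, 446 (73.2%) had sides that differed by under 20 points, 140 by 20 to under 50, and 23 (3.78%) by 50 or more. Among 21040 single CpGs with 10 or more reads over the libraries, 60.9% stood between 20% and 80%, against 1.14% in unmethylated and 7.04% in fully methylated islands. The classes were set by the mean level of these CpGs, so this contrast follows largely from the rule. Surroundings were higher: the flanks at 500 to 2000 bp were above the island in 506 of 614 islands, by a median of 21.6 points, and below 20% at 20. In the first 100 bp outside an edge the level was 47.0% in HOM, 53.1% in HET and 51.9% in WT, and from 1000 to 1100 bp it was 69.3% in HOM, 73.1% in HET and 73.2% in WT.

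**Figure D2:**
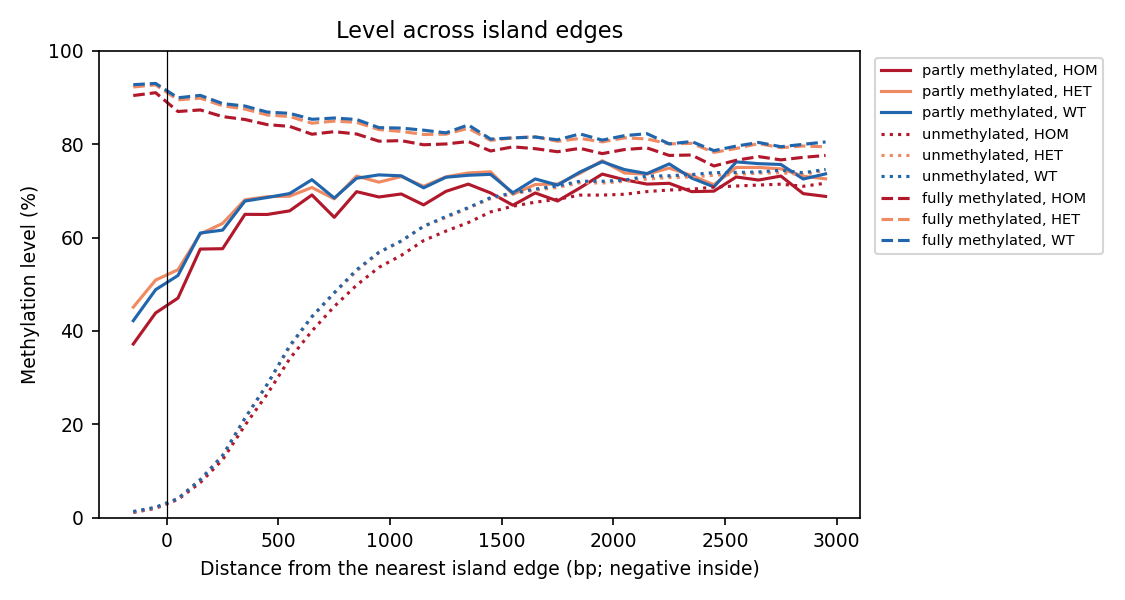
Methylation level (%) per 100 bp of distance to the nearest island edge (bp, negative inside), for partly methylated (solid), unmethylated (dotted) and fully methylated islands (dashed), with a line per library. Partly methylated islands stand at 47.0% in HOM, 53.1% in HET and 51.9% in WT just outside the edge, between the other classes.

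Of the 5 islands with the most CpGs, 2 were even, with sides under 20 points apart, 1 was split, with sides 50 points or more apart, and 2 lay between. Rbmxl2, which encodes a germ cell RNA-binding protein, had an even island of 211 CpGs (chr7:107209178-107210654) at 31.8% in HOM, 51.7% in HET and 49.0% in WT over 1057, 1076 and 776 CpG reads. An island of 293 CpGs near Cilp2, an extracellular matrix gene, was even as well, at 15.01% in HOM, 23.2% in HET and 25.7% in WT. The island with the most CpGs, 349, lies at the promoter of Mex3b, an RNA-binding protein gene, and stood at 20.2% in HOM, 22.5% in HET and 22.8% in WT. Its sides differed, at 0.236% on one and 39.8% on the other over the mean of the libraries. Other even islands of many CpGs lie near Fam171a2, with 172 CpGs, inside Gnas, with 167, and inside Apba1, with 150. Near Dact3, a Wnt pathway modulator gene, an island of 204 CpGs stood at 25.7% in HOM, 33.3% in HET and 23.6% in WT.

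Among the 23 split islands, the widest gap lay at Dazl, which encodes an RNA-binding protein of germ cells. Its island (chr17:50292685-50293791, 108 CpGs) stood at 94.0% on the side that holds the start site and 3.03% on the side inside the gene. Over the whole island it was at 26.3% in HOM, 36.5% in HET and 39.6% in WT over 634, 739 and 507 CpG reads. The methylated side was at 90.5% in HOM, 96.9% in HET and 94.6% in WT and the other at 3.01% in HOM, 3.76% in HET and 2.32% in WT. The methylated side drew 26.7% of the CpG reads in HOM, 35.2% in HET and 40.4% in WT. With both sides weighted equally, the island stood at 46.8% in HOM, 50.3% in HET and 48.5% in WT. Itpripl2 had sides of 83.7% and 3.76%, and an island 2923 bp from Gata2, a transcription factor of blood stem and mast cells, had 2.52% and 82.4%. Inside Jarid2, a cofactor of Polycomb repression, an island had 21.9% and 99.3%. An island between genes at chr12:33780904-33781177 had 17.8% and 93.97%. Split islands also lay near Tradd, an adaptor of the TNF receptor (71.2% and 2.04%), and Cbx8, a Polycomb subunit (17.9% and 73.0%).

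One split island joins the start sites of Tex14, needed for the bridges between germ cells, and Rad51c, a recombination repair gene used in dividing cells. The Tex14 window stood at 87.8% in HOM, 90.7% in HET and 90.1% in WT over 164, 108 and 81 CpG reads. The Rad51c window printed above stood at 0.855% in HOM, 0.578% in HET and 0% in WT over 117, 173 and 64 CpG reads. A count of 0 there allows up to 4.69% with CpG reads taken as independent, and more since those of one read are not. A second annotated start of Rad51c, on the Tex14 side, was methylated in every library, at 85.3% in HOM, 89.7% in HET and 92.5% in WT. Averaged together these stretches gave the island 38.9% in HOM, 23.0% in HET and 31.7% in WT. With both sides weighted equally it stood at 30.4% in HOM, 22.8% in HET and 32.9% in WT. At the 70 coding promoters with one strand, the side inside the gene was higher at 45 and lower at 25, with a median difference of 3.81 points.

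**Figure D3:**
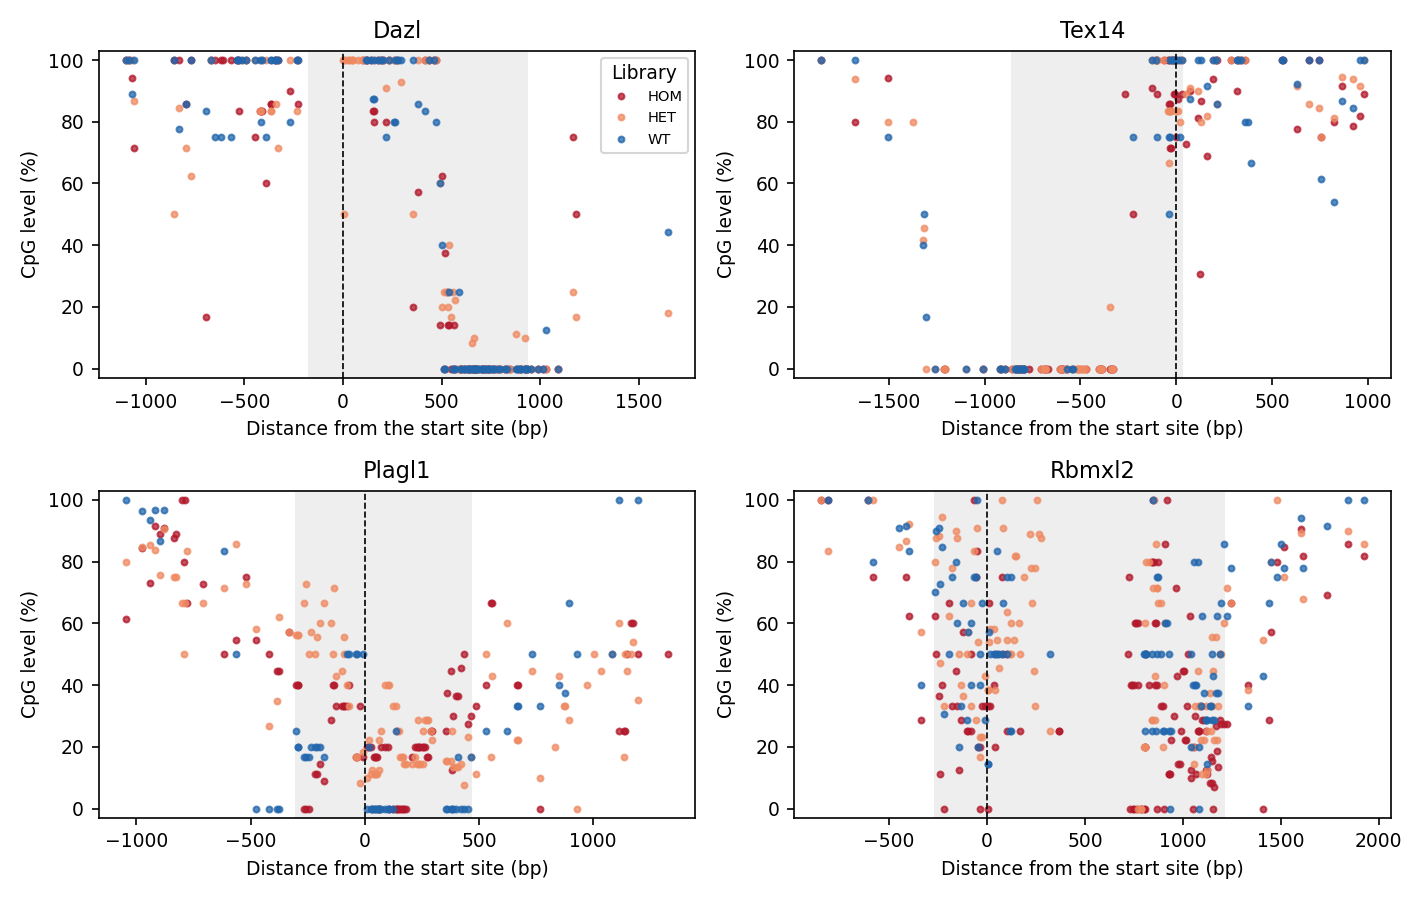
Level (%) of single CpGs with 4 or more reads against the distance (bp) from the start site (dashed line) for Dazl, Tex14, Plagl1 and Rbmxl2, with a point per CpG and library and the island in grey. Dazl falls to near 0 downstream and Tex14 upstream of the start, while Plagl1 and Rbmxl2 hold intermediate CpGs.

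The genotypes were compared island by island by Fisher's exact test (two-sided) of the CpG reads, with Benjamini-Hochberg adjustment over all 16376 islands. An island was called when levels differed by at least 10 points with an adjusted p below 0.05. The levels of partly methylated islands spread more between libraries than those of the other classes: the range over the 3 libraries had a median of 13.9 points, against 0.515 in unmethylated and 5.69 in fully methylated islands. In HOM against WT 205 islands were called (33.0%), 86 higher (13.8%) and 119 lower (19.2%) in HOM. With levels scaled to equal open sea, 97 were called higher and 99 lower. Over all tested islands 2.1% were called, 0.733% higher and 1.37% lower. In HET against WT 131 were called (21.1%), 88 higher and 43 lower in HET, against 1.24% of all (0.782% higher, 0.458% lower). In HOM against HET 191 were called (30.8%), 62 higher and 129 lower in HOM, against 1.78% of all (0.519% higher, 1.26% lower). The rule used the same libraries, and islands near 0% or 100% have little room to differ by 10 points, so these shares are a description. Reads also fell unevenly along islands: of 202 islands called in HOM against WT with both sides read, 18 differed by under 10 points when the sides were weighted equally, and so did 3 of the 6 that were split.

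Few islands were called when each read was counted once for its neighbouring CpGs. CpGs of one read are not independent. For each island, the number of its CpGs that a 150 bp read starting at one of them would cover was averaged. The median of that mean was 10.4 over partly methylated islands. Counts divided by the mean of the island are called read equivalents. With these, 6 islands were called in HOM against WT, 3 higher and 3 lower. Of all tested islands 0.0427% were called, 0.0244% higher and 0.0183% lower. In HET against WT 1 was called higher, as were 0.00611% of all tested islands. In HOM against HET 5 were called, 1 higher and 4 lower, against 0.0305% of all (0.00611% higher, 0.0244% lower). The 3 comparisons share libraries.

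The mean over the 621 islands was 46.2% in HOM and 48.0% in WT, a difference of -1.85 points (95% counting interval -2.23 to -1.46). The median difference was -2.66 points, and over all tested islands -0.0444. Fully methylated islands had a mean difference of -1.92 points and a median of -1.67. HOM was lower than WT at 363 of the 621 islands and higher at 257. Scaling the libraries to equal open sea turned the mean to 0.179 points. HET averaged 49.1% and exceeded WT by 1.10 points (0.722 to 1.48). HOM minus HET was -2.95 points (-3.31 to -2.59), and -1.30 after scaling. On read equivalents the interval of HET minus WT included 0 (-0.183 to 2.38). Single islands differed far more than the means, with an SD of 16.4 points between islands for HOM minus WT.

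**Figure D4:**
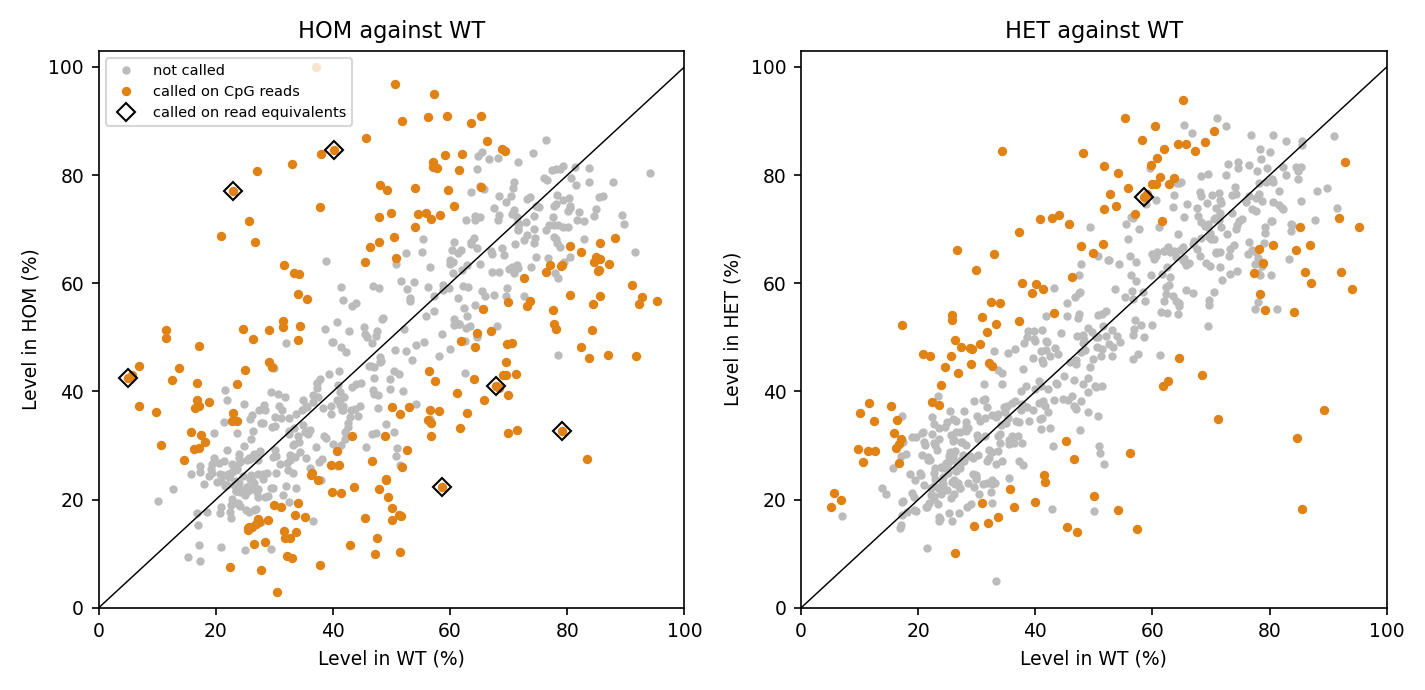
Level (%) of each partly methylated island in HOM (left) and HET (right) against WT, with the line of equal levels, called islands in orange and those called on read equivalents as open diamonds. In HOM 86 islands are called above and 119 below the line (97 and 99 after scaling to equal open sea), and in HET 88 above and 43 below.

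Clustered protocadherin genes, whose adhesion proteins give neurons their surface identity, made up the densest group. Of 44 tested islands of the 3 clusters on chromosome 18, 38 (86.4%) were partly methylated, 3 unmethylated and 3 fully methylated, while over all tested islands 621 of 16376 were. The unmethylated ones lie at Pcdhac1, Pcdhac2 and Pcdhgc3, which are C-type isoforms. No island lay within 1000 bp of the lower end of Pcdhgc4 or Pcdhgc5, which are C-type as well. The 9 islands within 250 bp of a gene end, in each case the end at the lower coordinate, had medians of 27.6% in HOM, 39.9% in HET and 49.0% in WT. The 29 islands farther in were higher, with medians of 63.9% in HOM, 67.1% in HET and 73.9% in WT. In WT the 29 stood at 52.1% or over, and 8 of the 9 stood below that while 1 was at 62.3%.

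HOM was lower than WT at 34 of the 38 protocadherin islands, with a median difference of -6.94 points, and at 30 with a median of -4.58 points after scaling to equal open sea. HET was lower than WT at 27. Of the 38, 9 were called lower in HOM than in WT (23.7%, against 19.2% of all partly methylated islands) and 0 higher (against 13.8%), and 0 on read equivalents. The island beside the nearest end of Pcdha2 (chr18:36939419-36939712) stood at 20.5% in HOM, 44.6% in HET and 49.4% in WT over 112, 157 and 77 CpG reads. At the Pcdhb21 island the levels were 51.2% in HOM, 58.3% in HET and 66.9% in WT over 246, 254 and 242. Pcdha7 went the other way, with 81.1% in HOM, 78.6% in HET and 64.5% in WT, and was not called. Neighbouring islands lie at least 644 bp apart, which is less than the sheared fragment size of 800 bp given in the labels, so some may share fragments.

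Imprinted genes with a maternally methylated control region had 22 partly methylated islands of 56 tested, with 27 unmethylated and 7 fully methylated. Medians were 25.5% in HOM, 30.6% in HET and 26.5% in WT, and 19 of the 22 stayed below 50% in every library. The Plagl1 island (chr10:13090533-13091299, 72 CpGs), at a growth-restraining transcription factor gene, stood at 21.9% in HOM, 29.0% in HET and 12.6% in WT. Gnas, which encodes the stimulatory G protein alpha subunit, had 4 islands, and the one of 167 CpGs stood at 22.8% in HOM, 27.9% in HET and 21.7% in WT over 1528, 1612 and 1066 CpG reads. At Igf2r, the receptor that clears IGF2, the intronic island where the noncoding Airn begins stood at 17.7% in HOM, 32.2% in HET and 22.4% in WT. The promoter island of Igf2r itself (111 CpGs) stood at 11.8% in HOM, 25.2% in HET and 26.5% in WT, and was called lower in HOM than in WT. HOM and WT were close in its start site window of 300 bases, at 8.03% in HOM, 29.2% in HET and 8.57% in WT. Impact, on chromosome 18, had 26.3% in HOM, 25.9% in HET and 22.9% in WT.

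HOM and WT differed in both directions among the 22 imprinted islands, with 11 higher and 11 lower in HOM. Nnat, a paternally expressed gene, stood at 49.9% in HOM, 29.0% in HET and 11.5% in WT over 393, 590 and 340 CpG reads, with HET between. Mest was the reverse, with 14.0% in HOM, 16.9% in HET and 33.7% in WT over 265, 652 and 300, and so was Nap1l5, with 27.2% in HOM, 37.1% in HET and 46.7% in WT. An island inside Inpp5f stood at 14.8% in HOM, 28.9% in HET and 25.4% in WT. One near Peg13 stood at 34.5% in HOM, 20.7% in HET and 22.7% in WT. In HOM against WT 3 were called higher and 6 lower, and 0 on read equivalents, and the 9 are 40.9% of the 22, against 33.0% of all partly methylated islands. An island inside the annotated span of Snrpn was at 100% in HOM, 69.5% in HET and 37.1% in WT over 30, 105 and 35 CpG reads. Of paternally methylated imprinted genes, 2 of 8 islands were partly methylated: near Dlk1 at 61.8% in HOM, 52.5% in HET and 33.3% in WT, and near Zdbf2 at 33.3% in HOM, 5% in HET and 33.3% in WT over 30, 40 and 30 CpG reads.

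Germline genes had 5 partly methylated islands of 35 tested, all at coding promoters, while 16 were fully methylated and 14 unmethylated. Besides Dazl and the Tex14 island they lay at Meioc, Tdrd1 and Piwil1. Meioc, needed for meiotic prophase, had 131 CpGs at 34.1% in HOM, 50.5% in HET and 56.7% in WT over 428, 562 and 178 CpG reads. Tdrd1, of the piRNA pathway, stood at 53.4% in HOM, 83.1% in HET and 60.7% in WT. Piwil1, a piRNA-binding protein gene, stood at 71.7% in HOM, 78.5% in HET and 64.2% in WT. Meioc and Dazl were called lower in HOM than in WT (40% of the 5, against 19.2% of all partly methylated islands), and 0 of the 5 on read equivalents. With the sides weighted equally, HOM minus WT was -25.9 points at Meioc but -1.70 at Dazl (-13.3 over all its reads).

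Hox genes, which set position along the body axis, had 8 partly methylated islands of 77 tested, with 65 unmethylated and 4 fully methylated. In the Hoxb cluster on chromosome 11, 6 partly methylated islands lay among 6 unmethylated ones between 96289385 and 96346273. All 6 were higher in HOM than in HET and than in WT, with medians of 63.4% in HOM, 49.2% in HET and 34.5% in WT. In HOM against WT 5 of them were called higher. Of the 8 Hox islands 62.5% were called higher, against 13.8% of all partly methylated islands, and 12.5% lower, against 19.2%. HET was higher than WT at 4 of the 6 and lower at 2. The number of islands in each direction stayed the same for every comparison after scaling to equal open sea. The island inside Hoxb3 (chr11:96345565-96346273, 72 CpGs) stood at 68.8% in HOM, 46.9% in HET and 20.9% in WT over 93, 128 and 115 CpG reads. The next, 1136 bp away, stood at 90.9% in HOM, 81.3% in HET and 59.6% in WT over 88, 75 and 89. None was called on read equivalents. An island inside Hoxa3 on chromosome 6 went the other way, with 12.9% in HOM, 61.4% in HET and 47.5% in WT over 163, 166 and 141 CpG reads, while Hoxa5 stood at 70.8% in HOM, 66.1% in HET and 76.9% in WT.

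**Figure D5:**
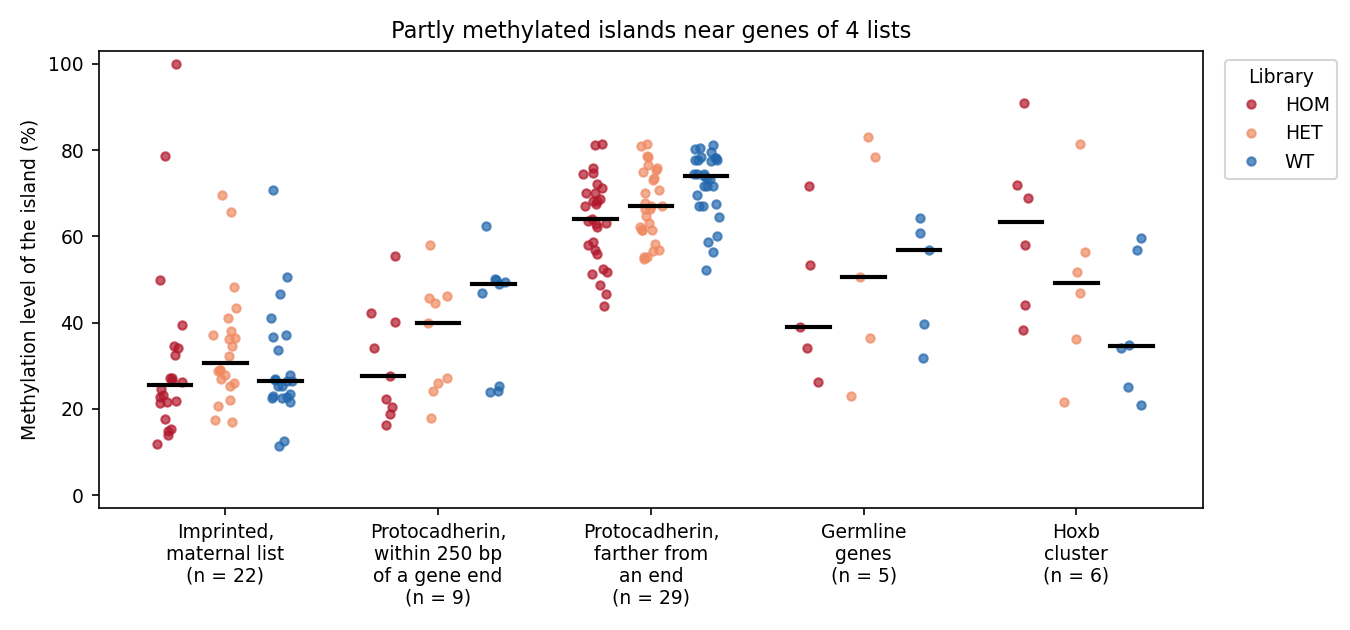
Methylation level (%) of partly methylated islands near genes of 4 lists, with a point per island and a bar at the median, for HOM, HET and WT from left to right. Protocadherin islands within 250 bp of a gene end have medians of 27.6% in HOM, 39.9% in HET and 49.0% in WT, and the 6 Hoxb islands 63.4% in HOM, 49.2% in HET and 34.5% in WT.

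Lists of blood cell and regulatory genes held 1 to 4 partly methylated islands each, where over all tested islands 3.79% were partly methylated. B cell genes had 2 of 37 (5.41%). An island inside Pax5 (chr4:44664072-44664673, 75 CpGs) stood at 30.1% in HOM, 27.0% in HET and 10.6% in WT, and one near Cd37, a tetraspanin of mature B cells, at 81.0% in HOM, 61.8% in HET and 61.6% in WT. Both were called higher in HOM than in WT, as were 13.8% of all partly methylated islands, and neither on read equivalents. T and NK cell genes had 1 of 27 (3.70%), inside Zap70, a kinase of the T cell receptor, at 69.9% in HOM, 65.4% in HET and 76.3% in WT. Myeloid and erythroid genes had 1 of 16 (6.25%), the Gata2 island above, at 25.7% in HOM, 18.2% in HET and 19.2% in WT. Its methylated side drew 32.4% of the CpG reads in HOM, 18.6% in HET and 19.4% in WT. With both sides weighted equally it stood at 39.0% in HOM, 44.1% in HET and 44.3% in WT. The KMT2D complex with other H3K4 methyltransferases had 1 of 28 (3.57%), within 5000 bp of Ncoa6, a coactivator subunit. Its nearest gene end was that of Trp53inp2, 3007 bp away, and it stood at 40.5% in HOM, 50.9% in HET and 49.7% in WT. Developmental transcription factors had 4 of 332 (1.20%), near Hand1, Dlx3, Foxc1 and Gata6, each at 20.5% to 32.7%.

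In other lists counts of 0 are close to what 3.79% of so few islands would give, under 2 in each. Tumour suppressors often hypermethylated in cancer had 0 of 46 partly methylated islands, replication-dependent histones 0 of 47 and the DNA methylation machinery 0 of 17. Zfp genes, many of which repress mobile elements, had 14 of 368, a share near that of all tested islands. HOM was lower than WT at 11 of these 14, but at 6 after scaling to equal open sea. Zfp996 had 37.2% in HOM, 46.5% in HET and 53.0% in WT over 775, 660 and 464 CpG reads at its promoter. Olfactory and vomeronasal receptors had 2 of 13, with Vmn2r29 at 37.5% in HOM, 35.1% in HET and 41.2% in WT. Promoters of similar sequence can exchange reads: among the 86 promoter windows, 4 pairs of 5 genes on chromosome 12 shared 81.3% to 87.7% of their bases, so levels at Gm40881, Gm38538, Gm38699, 5730507C01Rik and Gm21297 are uncertain.

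Higher in HOM than in WT, and called on read equivalents too, were 3 islands. Inside Anp32a, a gene for a histone-binding phosphatase inhibitor, an island (chr9:62363709-62363954) stood at 77.0% in HOM, 23.8% in HET and 22.9% in WT over 244, 290 and 201 CpG reads. HOM was the library apart there, by 54.2 points from WT and 53.3 from HET. The 95% interval of the difference from WT was 45.7 to 61.3 on CpG reads and 29.7 to 70.1 on read equivalents. Inside Gabbr2, a GABA receptor gene, an island stood at 84.6% in HOM, 59.8% in HET and 40.2% in WT over 435, 463 and 386 CpG reads, with HET between. Inside Def6, an exchange factor gene of lymphocytes, an island stood at 42.4% in HOM, 18.7% in HET and 5.09% in WT over 573, 518 and 648. On read equivalents the adjusted p of Fisher's exact test was 0.047 for Anp32a, 0.00479 for Gabbr2 and 0.00277 for Def6. All 3 were deeper per CpG than the median of partly methylated islands in every library. Anp32a held 1.74 to 1.82 times the median, Gabbr2 2.29 to 2.65 and Def6 2.20 to 3.81.

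Lower in HOM than in WT on both counts were another 3. Inside Ctnna3, an alpha-catenin gene, an island (chr10:63583615-63583875) stood at 32.7% in HOM, 67.4% in HET and 79.1% in WT over 449, 427 and 239 CpG reads. Its depth per CpG was 3.28 times the median of partly methylated islands in HOM, 2.67 in HET and 2.07 in WT. Between genes at chr12:20233968-20234333 the levels were 40.9% in HOM, 72.5% in HET and 67.8% in WT over 933, 1962 and 1073. This island held 37.3 CpG reads per CpG in HOM, 78.5 in HET and 42.9 in WT. Inside Sfi1, a centriole gene, an island (chr11:3192998-3193699) stood at 22.3% in HOM, 75.9% in HET and 58.5% in WT, and this was the only one called in HET against WT on read equivalents. It held 27327 CpG reads in HOM, 21419 in HET and 18329 in WT on 54 CpGs, or 506 in HOM, 397 in HET and 339 in WT per CpG, against medians of 7.21, 8.41 and 6.07 per CpG over all partly methylated islands. Both islands were over 5 times as deep as the median in every library, and whether their sequences are repeated was not tested. In HOM against HET, Fam217a and Mxra8 were lower on read equivalents as well: inside Mxra8, a virus entry receptor gene, an island stood at 9.35% in HOM, 37.3% in HET and 15.3% in WT over 1016, 995 and 759.

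The other named islands were called on CpG reads alone. Of those higher in HOM, Sfn, which encodes 14-3-3 sigma, had 80.8% in HOM, 32.6% in HET and 27.1% in WT over 78, 304 and 218 CpG reads. Sfn lies on chromosome 4, as do Gabbr2 above and Aldh4a1 below. Krtcap3, whose promoter is printed above, had 83.8% in HOM, 49.0% in HET and 38.0% in WT over 130, 312 and 313 across its island of 51 CpGs. Islands inside Aldh4a1, a proline breakdown enzyme gene, Igf2bp1, an mRNA-binding protein gene, and Rin2, and islands between genes at chr13:4942777-4943115 and chr11:96997302-96997682, were higher by 41.0 to 49.0 points. Of those lower in HOM, Zfp36l1, an mRNA decay factor of lymphocytes, had 46.5% in HOM, 72.1% in HET and 91.8% in WT over 101, 140 and 73. Inside Cd80, a costimulatory ligand of antigen-presenting cells, the levels were 10.3% in HOM, 41.0% in HET and 51.4% in WT over 195, 229 and 183. Rbpjl, a relative of the Notch effector RBPJ, had 32.2% in HOM, 68.1% in HET and 69.9% in WT. Akt1s1, an mTORC1 inhibitor gene, had 56.8% in HOM, 70.5% in HET and 95.3% in WT, and Scn8a, a sodium channel gene, 32.8% in HOM, 65.7% in HET and 71.5% in WT. Gm7102 and islands between genes at chr10:13060922-13061266, which is 29566 bp from Plagl1, and chr17:36248873-36249182 were lower by 36.1 to 40.2 points.

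The islands with the greatest differences between HET and WT were mostly others. Near Cplane2, a cilium assembly gene, HOM stood at 57.6%, HET at 18.2% and WT at 85.5% over 99, 187 and 76 CpG reads. Hlx, a homeobox gene of blood and gut, had 63.9% in HOM, 31.4% in HET and 84.6% in WT. Near Snorc the levels were 43.3% in HOM, 34.8% in HET and 71.2% in WT. Higher in HET than in WT were Sap18b, with 61.7% in HOM, 84.5% in HET and 34.3% in WT, and Taf1b, with 11.6% in HOM, 52.2% in HET and 17.2% in WT. Inside Rtn1 an island stood at 68.3% in HOM, 90.5% in HET and 55.4% in WT. In HOM against HET, the greatest difference among the named islands was -55.6 points at Spaca1, a sperm acrosome protein gene. Its promoter island had 26.1% in HOM, 81.7% in HET and 51.7% in WT over 111, 164 and 172 CpG reads.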

How the data were processed

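Whole-genome bisulfite sequencing of splenic B cell DNA gave, for each of 21875444 CpGs, counts of methylated and of covering reads. The deposited counts are raw and carry no normalization, per the file headers. Each genotype has a single pair of columns, and it is not stated whether that pair is 1 of the 2 labelled samples or both pooled. Blood samples were not analysed here. The submitters' processing notes name mm10 and 2 sets of tools (BWA 0.7.13, MethylDackel and Picard 2.3.0; Bismark, Bowtie2, Picard 1.91 and Trim Galore 0.2.8), without saying which made these columns. Levels are methylated over covering counts, summed over an island. Wilson intervals were used for levels, Newcombe's for differences and normal ones for means; they cover counting error only and treat CpGs as independent. Mean depth was 9.85 reads per CpG in HOM, 12.9 in HET and 9.18 in WT. Tests ran in Python 3.11.15 with scipy 1.17.1 and were tested on simulated data. Gene positions and promoter windows are RefSeq's for GRCm38.p6, with no promoter windows for chromosome 18. An island bears the name of the protein-coding gene whose end is within 5000 bp, or of a gene it lies inside or whose start it holds. Named are the called islands with the greatest differences and at least 60 CpG reads, and those with the most CpGs or the widest gaps. Islands next to the limits are named too, and up to 4 per list (10 for imprinted genes), those with the most CpGs first. Tradd, Cbx8, Nap1l5, Snrpn and the further protocadherin, Hoxb and Zfp values were chosen after their values were seen. The islands and gene lists were chosen with earlier results of these data known. The level of 1 marker gene on its own is not reported here.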

Additional observations from a re-analysis of the deposited data

How the results depend on the processing

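No paired analysis was possible because the table holds 1 pair of columns per genotype, and for the same reason no replicate could be left out. The mean of HOM minus WT turned to 0.179 points with levels scaled to equal open sea, where HET minus WT was 1.48 and HOM minus HET -1.30 points. Calls on read equivalents fell to 6 in HOM against WT, 1 in HET against WT and 5 in HOM against HET, since fewer independent counts enter the test. With at least 20 points they were 119, 62 and 98. With mean levels of 30% to under 70% there were 335 islands, 119, 77 and 116 calls, and means of -2.28 points for HOM minus WT and -3.51 for HOM minus HET. With islands over 500 bp there were 181, 68, 34 and 60 calls, and means of -2.67 and -4.09. With at least 8 CpGs per 100 bp HOM minus WT was -2.26 and HET minus WT 0.687 points. HET minus WT was 1.64 points with at least 60 CpG reads and 1.56 with at least 100. With a gap of 40 points, 50 islands were split. Apart from the settings of fewer islands or stricter calls, the cause was not tested. In an alternative chosen after seeing the data, calls that also reached 10 points with both sides weighted equally numbered 184 in HOM against WT, 117 in HET against WT and 173 in HOM against HET. In all, 9 of 13 settings tried for each count of calls stayed within 1.5 times the value given. Depth limits single islands: a median of 199 CpG reads in WT stands for far fewer fragments.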
